A study of Mus musculus with 11 samples.

Results

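A set of 10 genes that fold, glycan-check or cross-link new proteins in the endoplasmic reticulum (ER) were followed through adipogenesis and through loss of the nuclear envelope proteins Tmem120a and Tmem120b in 3T3-L1 cells, a mouse line of fibroblast-like cells that turn into fat cells under hormones. These were Hspa5, Hsp90b1, Calr, Canx, Pdia3, Pdia4, Pdia6, Dnajb9, Sdf2l1 and Hyou1. They were chosen with earlier results of these data known and taken by name from the array annotation. All 10 were found, on 13 of the 45281 probes and among 19057 genes with a probe of their own. Calr, Pdia6 and Dnajb9 had 2 probes each and the others 1.

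RNA was hybridised to 11 Illumina MouseWG-6 v2 arrays in 5 groups. All cells carried lentiviral shRNA, a short hairpin RNA that lowers a chosen transcript. There were 2 arrays of undifferentiated preadipocytes at day 0 and 3 of control adipocytes, both with a non-target shRNA, and 2 arrays each of adipocytes with shRNA against Tmem120a, against Tmem120b and against both, called the double knock-down. Adipocytes had received dexamethasone (1 µM), rosiglitazone (1 µM), insulin (0.5 µM) and the phosphodiesterase inhibitor IBMX (0.5 mM), and then insulin with rosiglitazone. The labels place them at day 9, while the study's methods give an earlier day. The knock-downs came from stable lines, with the number of lines per group not given in the sources used here. The replicates are called biological, but nothing says that they came from separate cultures, and the spread behind all p-values is only that between these arrays, which may be technical. In bulk RNA, fewer cells of a type and less RNA per cell cannot be told apart.

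Signals are log2 values after quantile normalisation, and a probe was above background when its mean passed log2 6.88. Tmem120a stood at 39.9% of control in its own knock-down and 45.9% in the double knock-down, and Tmem120b at 23.8% and 32.5%, all 4 with called tests. All 11 adipocyte markers measured, Adipoq and Plin1 among the list, were above background in every adipocyte group against 3 of 11 in preadipocytes. Their mean signal was 11.24 to 11.28 in controls, 11.39 to 11.50 with Tmem120a knock-down, 10.88 to 10.99 with Tmem120b knock-down and at most 11.04 in the double knock-down. The 8 preadipocyte and fibroblast markers were above background in all groups, with a mean of 10.95 to 11.02 in controls, 10.74 to 10.78 with Tmem120a knock-down, 11.66 to 11.67 with Tmem120b knock-down and 11.46 to 11.66 in the double knock-down. Of 6 macrophage, 6 endothelial and 6 skeletal muscle markers at most 2 of a list were above background in any group. Before normalisation the 6 knock-down arrays had lower medians (6.58 to 6.70) than the 5 others (6.75 to 7.10), and the part of either difference in the results was not tested.

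Proteins bound for secretion, and many bound for membranes, enter the ER unfolded. Hspa5, also called BiP, is the Hsp70 chaperone of the ER lumen. It binds exposed hydrophobic stretches in cycles of ATP hydrolysis that J-domain proteins such as Dnajb9 start and that the nucleotide exchange factor Hyou1 ends, while Sdf2l1 works with J-domain partners. Hsp90b1 is the Hsp90 of the ER. Calr and Canx are lectins that hold glycoproteins with trimmed sugars, and Pdia3, Pdia4 and Pdia6 make and reshuffle disulfide bonds. Unfolded protein in the ER activates the sensors Ern1, Eif2ak3 and Atf6. Cleaved Atf6 and spliced Xbp1 bind ER stress response elements (ERSE) in promoters of many of these genes, and adipocytes, which secrete adiponectin and other hormones in bulk, are known to use this system.

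Because these genes are known as a shared transcriptional programme, their promoters were searched for the element. RefSeq promoters of GRCm38.p6, running from 250 bases before to 50 bases after the start site, matched 9 of the 10 genes. The motif was CCAAT and CCACG with 9 bases of any kind between, on both strands. It stood in the promoters of 5 of these 9 genes (Hspa5, Hsp90b1, Calr, Canx and Pdia6) and in 39 of 32851 promoters in the table (0.119%). As the element is known from promoters of many of these genes, these shares carry no test. The matches are printed because they let the shared blocks be compared with the unlike responses below. Each is read 5′ to 3′ on the strand that carries the motif, with both blocks in capitals.
Hspa5, 65 bases before the start, gene strand: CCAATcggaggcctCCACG
Hsp90b1, 212 bases before the start, gene strand: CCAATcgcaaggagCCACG
Hsp90b1, 107 bases before the start, opposite strand: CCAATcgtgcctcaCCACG
Calr, 162 bases before the start, opposite strand: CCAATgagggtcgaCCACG
Canx, 145 bases before the start, gene strand: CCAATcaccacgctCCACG
Pdia6, 98 bases before the start, gene strand: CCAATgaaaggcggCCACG
In Canx the bases between the blocks hold a further CCACG. Of the 4 genes called lower in a knock-down below, Hspa5 and Hsp90b1 had an exact match and Dnajb9 and Sdf2l1 had none. Calr and Pdia6 had a match and no such call after quantile normalisation, and the Canx probe cannot show a change. With the raw arrays only shifted to a common median, Calr and Pdia6 were also called lower in a knock-down, as was Pdia3, which had no match. The short block CCACG alone, also counted within ERSE, occurred in 8 of 9 members and in 32.8% of all promoters. The other motifs searched, ERSE-II (ATTGG and CCACG with 1 base between) and TGACGTGG, the core of the element bound by Xbp1, were in 0 of 9 members and in 0.0365% and 0.676% of promoters. A match is a run of letters only, and no match says only that these exact letters are not in this window.

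The complete windows of the 3 genes whose fall with knock-down is described first are given 5′ to 3′ along the gene. In Hspa5 capitals mark the ERSE, and in Dnajb9 and Sdf2l1 they mark CCACG or its reverse complement CGTGG.
Hspa5 promoter, chr2:34771840-34772139, plus strand: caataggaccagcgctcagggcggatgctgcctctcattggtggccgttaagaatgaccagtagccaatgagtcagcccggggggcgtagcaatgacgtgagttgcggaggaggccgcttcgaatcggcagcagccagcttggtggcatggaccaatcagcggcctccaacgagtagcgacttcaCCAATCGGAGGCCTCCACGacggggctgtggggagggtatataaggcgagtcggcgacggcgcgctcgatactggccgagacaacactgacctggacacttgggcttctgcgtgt
Dnajb9 promoter, chr12:44210019-44210318, minus strand: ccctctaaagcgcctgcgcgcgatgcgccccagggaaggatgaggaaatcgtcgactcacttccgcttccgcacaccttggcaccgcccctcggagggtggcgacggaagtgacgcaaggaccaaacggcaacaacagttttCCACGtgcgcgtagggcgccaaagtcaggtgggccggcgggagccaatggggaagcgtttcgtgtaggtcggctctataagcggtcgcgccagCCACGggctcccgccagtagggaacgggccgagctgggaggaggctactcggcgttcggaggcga
Sdf2l1 promoter, chr16:17132334-17132633, minus strand: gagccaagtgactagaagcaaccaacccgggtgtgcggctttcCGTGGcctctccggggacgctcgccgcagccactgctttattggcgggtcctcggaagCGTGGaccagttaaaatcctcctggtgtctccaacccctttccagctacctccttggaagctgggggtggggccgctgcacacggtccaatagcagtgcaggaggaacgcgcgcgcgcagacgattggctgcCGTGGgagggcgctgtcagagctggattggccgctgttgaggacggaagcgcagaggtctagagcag
The Hspa5 motif lies 65 bases before the start. Dnajb9 has CCACG at 108 and 15 bases before it, and Sdf2l1 has CGTGG at 207, 149 and 17 bases before it.

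Hspa5, read by 1 probe, fell to about the background of the arrays in all knock-down groups. Its probe (ILMN_1255561) read 8.40 and 8.47 in preadipocytes and 8.54, 8.72 and 8.70 in control adipocytes. With Tmem120a knock-down it read 6.92 and 6.97, with Tmem120b knock-down 6.97 and 7.03, and in the double knock-down 6.77 and 7.06. Every knock-down array lay below every preadipocyte and control array, and 1 of the 2 double knock-down arrays lay under the background threshold. The log2 difference from control adipocytes was -1.71 with Tmem120a knock-down (SE 0.0836, adjusted p = 3.65e-07), which left 30.6% of the control signal. It was -1.65 with Tmem120b knock-down (31.9% of control, adjusted p = 8.95e-08). Under both shRNAs together the value was -1.74 (30% of control, adjusted p = 6.48e-08). Among all 19057 genes on their brightest probes, the fall of Hspa5 was of rank 5 by size with Tmem120a knock-down. It was of rank 31 in each of the other knock-down comparisons. Since the knock-down signals sit near background, these folds can understate the change. The probe averaged 8.65 in controls, and how well it reads the Hspa5 transcripts was not tested. A signal near background therefore does not show that the transcript was nearly absent. No second probe was there to repeat the fall of Hspa5, and second probes of other genes often missed such falls on these arrays. The shares are given below, beside Dnajb9.

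**Figure D1:**
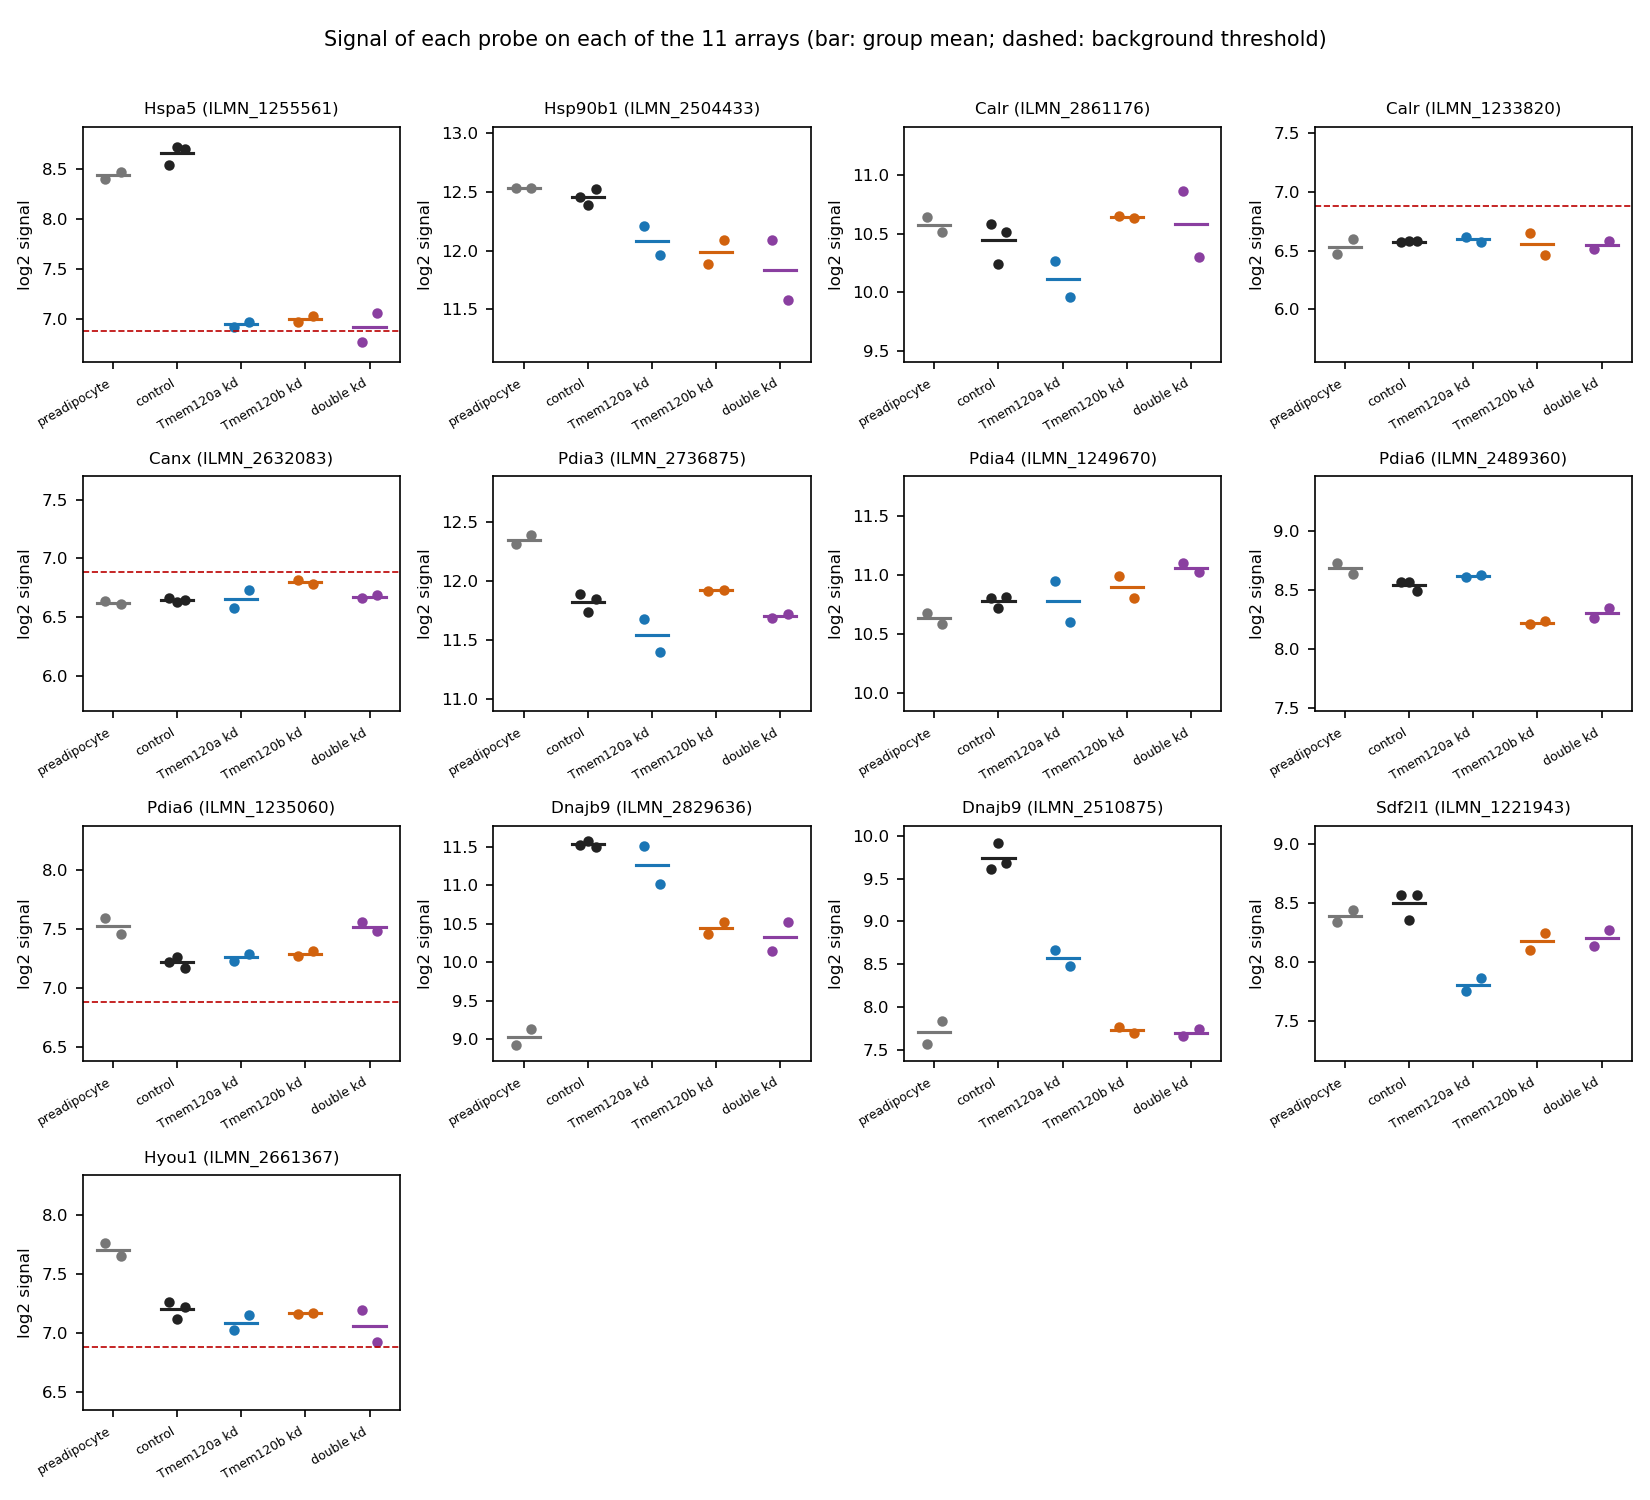
Log2 signal (y axis) of each of the 13 probes on each of the 11 arrays (points), by group (x axis; kd, knock-down), with group means as bars and the background threshold of 6.88 as a dashed line where it falls in the panel. Hspa5 reads 8.40 or more in preadipocytes and controls and 7.06 or less on all 6 knock-down arrays, while the Canx probe and 1 Calr probe lie under the threshold on every array.

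Differentiation gave no call for Hspa5. Control adipocytes exceeded preadipocytes by 0.22 (95% CI 0.04 to 0.40, adjusted p = 0.079), which was not called. When the raw arrays were merely shifted to a common median in place of quantile normalisation, this difference was 0.62 (adjusted p = 0.000953) and past the threshold. The double knock-down differed from the Tmem120a knock-down by -0.03 (95% CI -0.23 to 0.17) and from the Tmem120b knock-down by -0.09 (95% CI -0.29 to 0.11), and the single knock-downs differed from each other by 0.06 (95% CI -0.14 to 0.26). None of these 3 was called.

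Dnajb9, a J-domain protein that stimulates Hspa5 and holds back Ern1, was the member that differentiation changed most. Its brighter probe (ILMN_2829636) read 8.92 and 9.13 in preadipocytes and 11.52, 11.58 and 11.50 in control adipocytes. The other probe (ILMN_2510875) read 7.57 and 7.84 in preadipocytes and 9.61, 9.92 and 9.68 in controls. Groups did not overlap on either probe, and the gain was 2.51 (SE 0.133, adjusted p = 7.88e-09) and 2.03 (SE 0.0981, adjusted p = 3.11e-09), or 5.7-fold and 4.09-fold.

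The knock-downs split the probes of Dnajb9. With Tmem120a knock-down the brighter probe read 11.51 and 11.02, of which 1 lies within the control range, and the other probe read 8.66 and 8.48, both below it. The brighter probe thus differed from control by -0.27 (95% CI -0.56 to 0.02, adjusted p = 0.297), and the other fell by 1.17 (adjusted p = 1.34e-05). Without Tmem120a knock-down replicate 1, the array at 11.51, the brighter probe was at -0.52 (adjusted p = 0.0366) and past the threshold, as it was under a median shift (-0.75, adjusted p = 0.0192). With Tmem120b knock-down the probes read 10.37 and 10.53, and 7.77 and 7.70. In the double knock-down they read 10.15 and 10.52, and 7.66 and 7.74. Here both probes were below control on all arrays. The falls were 1.08 and 2.00 with Tmem120b knock-down (adjusted p = 0.000101 and 7.17e-08) and 1.20 and 2.04 in the double knock-down (adjusted p = 4.69e-05 and 6.57e-08).

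Set against the gain over preadipocytes, the brighter Dnajb9 probe kept 89.1% of it with Tmem120a knock-down, 56.9% with Tmem120b knock-down and 52.2% in the double knock-down. The other probe kept 42.5%, 1.53% and -0.274%. On that probe the Tmem120b and double knock-down arrays lay between 7.66 and 7.77, inside the range of the preadipocyte arrays. The place of the probes in the transcripts was not analysed here, and whether they read different transcripts was not tested. Of genes with 2 probes above background in controls that were called lower on the brightest one, the second, dimmer probe was often not called. It was called lower too for 20% with Tmem120a knock-down, 30.6% with Tmem120b knock-down and 27.8% in the double knock-down. Dnajb9 was not such a case. With Tmem120a knock-down only its dimmer probe was called, and with Tmem120b and double knock-down both probes were.

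The single knock-downs differed from each other in Dnajb9. Tmem120b knock-down was lower than Tmem120a knock-down by -0.81 on the brighter probe (adjusted p = 0.00305) and by -0.83 on the other (adjusted p = 0.000264). The double knock-down was lower than the Tmem120a knock-down by -0.93 (adjusted p = 0.0016) and -0.87 (adjusted p = 0.000296). From the Tmem120b knock-down it differed by -0.12 (95% CI -0.44 to 0.20) and -0.04 (95% CI -0.27 to 0.20), neither called. In a median shift of the arrays the brighter probe kept its sign in the first pair of comparisons but missed the threshold, at adjusted p of 0.0964 and 0.108.

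Sdf2l1, a soluble ER protein that binds J-domain partners of Hspa5, was lowest with Tmem120a knock-down. It read 8.34 and 8.44 in preadipocytes and 8.57, 8.36 and 8.57 in controls. With Tmem120a knock-down it read 7.75 and 7.86, with Tmem120b knock-down 8.10 and 8.25, and in the double knock-down 8.14 and 8.27. All 6 knock-down arrays lay below all 3 controls, with the Tmem120a arrays below the rest. The difference was -0.70 with Tmem120a knock-down (SE 0.0798, 61.7% of control, adjusted p = 0.000144), which was called. It was -0.33 with Tmem120b knock-down (adjusted p = 0.0138) and -0.30 in the double knock-down (adjusted p = 0.0252), both under the size of 0.5 required of a call. Under a median shift both were called, at -0.79 (adjusted p = 0.00702) and -0.63 (adjusted p = 0.0285). Tmem120b knock-down exceeded Tmem120a knock-down by 0.37 (adjusted p = 0.016), also under that size.

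Hyou1, the exchange factor of Hspa5, read 7.76 and 7.65 in preadipocytes and 7.26, 7.12 and 7.22 in controls, a fall of 0.50 with differentiation (adjusted p = 0.000252). This call rested on single arrays: without preadipocyte replicate 1 the difference was -0.44 and without control replicate 2 it was -0.47, both under the size of 0.5, and with arrays shifted to a common median it was -0.30 (adjusted p = 0.118). With knock-down the readings were 7.02 and 7.15, 7.16 and 7.17, and 7.19 and 6.92. These overlapped the controls, and the differences of -0.11, -0.04 and -0.15 were not called.

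Hsp90b1, which folds a narrower set of clients, among them integrins and insulin-like growth factors, was lowest in the double knock-down. It read 12.53 and 12.53 in preadipocytes and 12.46, 12.39 and 12.52 in controls. With Tmem120a knock-down it read 12.21 and 11.96, with Tmem120b knock-down 11.89 and 12.09, and in the double knock-down 12.09 and 11.58. Every knock-down array was below every control. The differences were -0.37 (adjusted p = 0.102) and -0.47 (adjusted p = 0.0226) with the single knock-downs, neither called, and -0.62 in the double knock-down (SE 0.124, 65.1% of control, adjusted p = 0.00408), which was. Without double knock-down replicate 2, the array at 11.58, that difference was -0.36 (adjusted p = 0.0392) and under the size of a call. Without Tmem120b knock-down replicate 2 the difference in the Tmem120b knock-down was -0.57 (adjusted p = 0.0401), and under a median shift both single knock-downs were called, at -0.80 (adjusted p = 0.0192) and -0.82 (adjusted p = 0.0144).

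The lectin chaperones gave no call in any comparison after quantile normalisation. Canx, the membrane-bound one, was not above background on any array (6.58 to 6.82), nor was 1 of the 2 Calr probes (6.46 to 6.65), so neither can show a change. The other Calr probe read 10.64 and 10.51 in preadipocytes, 10.58, 10.24 and 10.51 in controls, 10.27 and 9.96 with Tmem120a knock-down, 10.65 and 10.63 with Tmem120b knock-down, and 10.86 and 10.30 in the double knock-down. The spread within groups was wide, and the controls overlapped the Tmem120a and double knock-down arrays. Its differences from control were -0.33 (95% CI -0.64 to -0.01, adjusted p = 0.247), 0.20 (95% CI -0.12 to 0.52) and 0.14 (95% CI -0.18 to 0.45), none called. Under a median shift the first was -0.85 (adjusted p = 0.0428), a call, and the others turned to -0.23 and -0.17. Tmem120b knock-down exceeded Tmem120a knock-down by 0.52 (adjusted p = 0.0611), and this passed the threshold in 6 of the 19 alternative settings.

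Of the disulfide isomerases, Pdia3, which docks onto Calr and Canx, fell with differentiation. It read 12.32 and 12.39 in preadipocytes and 11.89, 11.74 and 11.85 in controls, without overlap, a difference of -0.53 (SE 0.0781, adjusted p = 0.000133). The value was -0.49 without preadipocyte replicate 2 and -0.48 without control replicate 2, both under the size of a call, and -0.14 (adjusted p = 0.597) under a median shift. With Tmem120a knock-down Pdia3 read 11.68 and 11.40, with Tmem120b knock-down 11.92 and 11.93, and in the double knock-down 11.69 and 11.72. None of the 3 differences from control (-0.28, 0.10 and -0.12) was called. Under a median shift the first was -0.74 (adjusted p = 0.00891), a call, and the second turned to -0.26.

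No value of Pdia4 or Pdia6 was called after quantile normalisation. Pdia4, an isomerase with an additional active domain, ranged from 10.58 to 11.10 over all arrays. Its differences from control were 0.00 (95% CI -0.20 to 0.20), 0.12 (95% CI -0.08 to 0.32) and 0.29 (95% CI 0.09 to 0.49, adjusted p = 0.0564). Under a median shift these were -0.51, -0.28 and 0.00, none called, while its difference in differentiation went from 0.14 to 0.54 (adjusted p = 0.0403), a call. Pdia6, which also acts on the sensor Ern1, was lower with Tmem120b knock-down on its brighter probe (ILMN_2489360), at 8.21 and 8.24 against 8.57, 8.57 and 8.49, a difference of -0.31 (adjusted p = 0.00181) that is under the size of a call. The other Pdia6 probe (ILMN_1235060) gave 0.07 there, and 0.30 (adjusted p = 0.00363) in the double knock-down where the brighter one gave -0.24 (adjusted p = 0.0112). The probes of Pdia6 thus disagreed in sign. Under a median shift the brighter one was called lower with Tmem120b knock-down (-0.78, adjusted p = 0.00514) and in the double knock-down (-0.57, adjusted p = 0.0323).

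**Figure D2:**
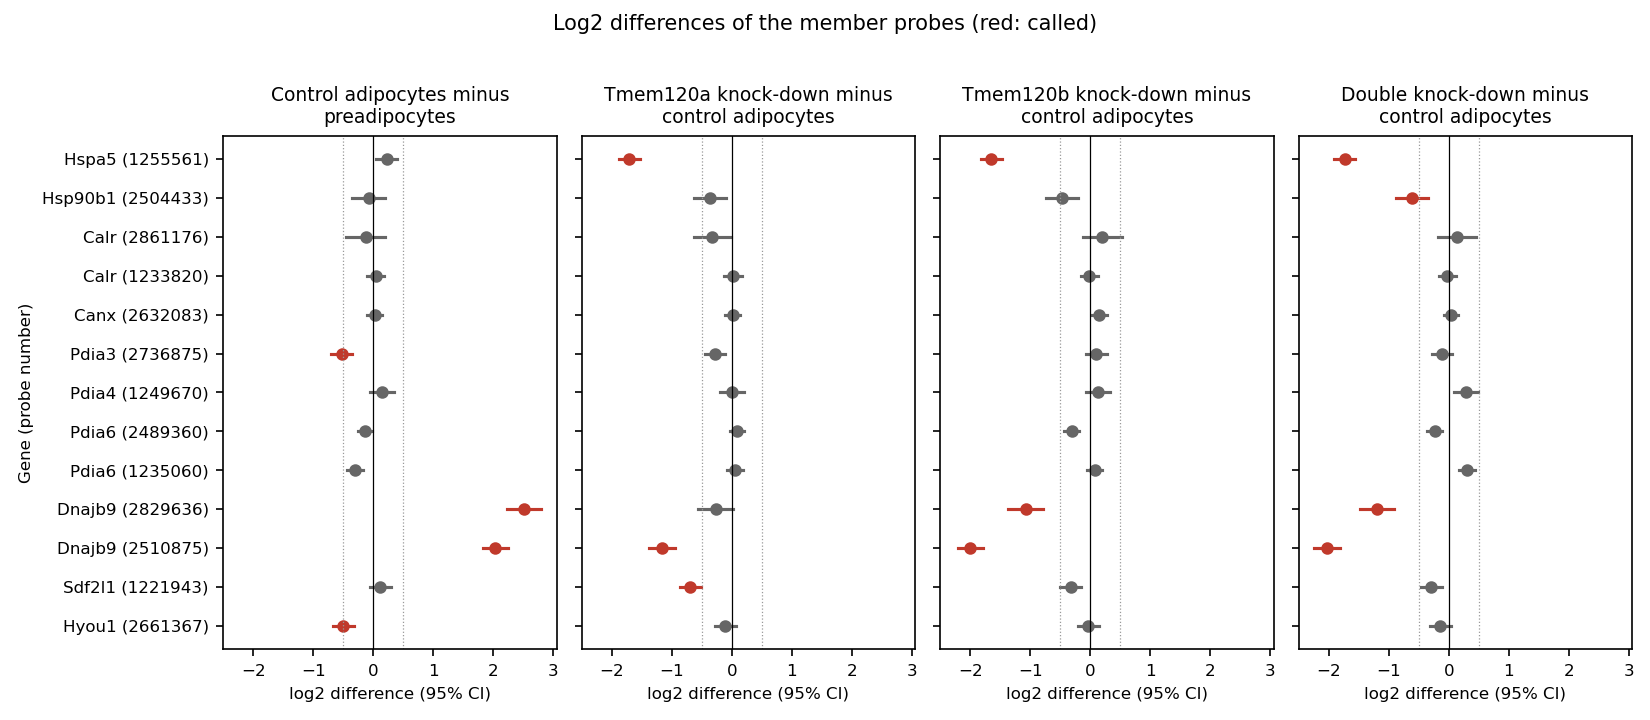
Log2 difference (x axis) of each member probe (y axis) with its 95% confidence interval, in 4 comparisons, red where called and with dotted lines at the size of 0.5. Hspa5 lies at -1.71, -1.65 and -1.74 in the knock-downs, and the Dnajb9 probes lie at 2.51 and 2.03 in differentiation.

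Counted on the brightest probe of each gene, differentiation raised 1 of the 10 genes (Dnajb9) and lowered 2 (Pdia3 and Hyou1), where 11.9% of all 19057 genes were called higher and 11.1% lower. Under a median shift 4 were called, all higher (Dnajb9, Hspa5, Pdia4 at 0.54 and Sdf2l1 at 0.51), where 18.9% of all genes were called higher. Tmem120a knock-down lowered 2 (Hspa5 and Sdf2l1) and raised 0, against 2.32% of all genes called lower and 0.829% higher. Tmem120b knock-down lowered 2 (Hspa5 and Dnajb9) and raised 0, against 4.04% lower and 3.83% higher. The double knock-down lowered 3 (Hspa5, Dnajb9 and Hsp90b1) and raised 0, against 3.96% lower and 3.29% higher. The median difference of the 10 genes was -0.03, -0.28, -0.18 and -0.19 in these comparisons, beside 0.00, 0.01, 0.02 and 0.02 over all genes. The 3 knock-down comparisons share the same 3 control arrays, so they are not independent of each other. The 10 genes were also chosen with earlier results of these data known, so these counts beside the shares are no test of the set.

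Between knock-downs, 1 of the 10 genes (Dnajb9) was called when the single knock-downs were compared, where 6.42% of all genes were, and 1 (Dnajb9) when the double was compared with the Tmem120a knock-down, where 4.87% were. In the comparison of the double with the Tmem120b knock-down, limma called 0 of 10, and 1 had an unadjusted p under 0.05, while 0.199% of all genes were called. These counts depend on the scaling, except for the 0 of the last comparison, which stayed 0. Under the median shift the members called were 6 with Tmem120a knock-down, 5 with Tmem120b knock-down and 5 in the double knock-down, all lower, where 13.8%, 13.2% and 8.38% of all genes were called lower. The count was 0 in each of the first pair of comparisons between knock-downs.

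To ask whether the effects of both shRNAs add up, the double knock-down was set against the sum of both single changes on the log2 scale. A departure was called for 2 of the 10 genes, Hspa5 and Sdf2l1, where 2.48% of all genes departed. For Hspa5 the sum would lie at 5.30, while the double knock-down measured 6.91, a departure of 1.62 (SE 0.124, adjusted p = 5.45e-05). No array held a value under 6.36, so a signal of 5.30 could not have been read, and the test cannot tell less than additive loss from the floor of the array. Nor can it tell either from a downward step shared by all knock-down arrays, which by itself gives a departure above the sum. That holds for every gene here, Sdf2l1 included, and was not tested. For Sdf2l1 the sum would lie at 7.48, above background, and the double knock-down measured 8.21, a departure of 0.73 (SE 0.118, adjusted p = 0.00623). Dnajb9 departed on its dimmer probe by 1.13 (6.57 against 7.70, adjusted p = 0.00139), where the sum is again under background, and on its brighter probe by 0.15 (10.18 against 10.34, adjusted p = 0.818). The median departure of the 10 genes was 0.16, beside -0.02 over all genes.

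**Figure D3:**
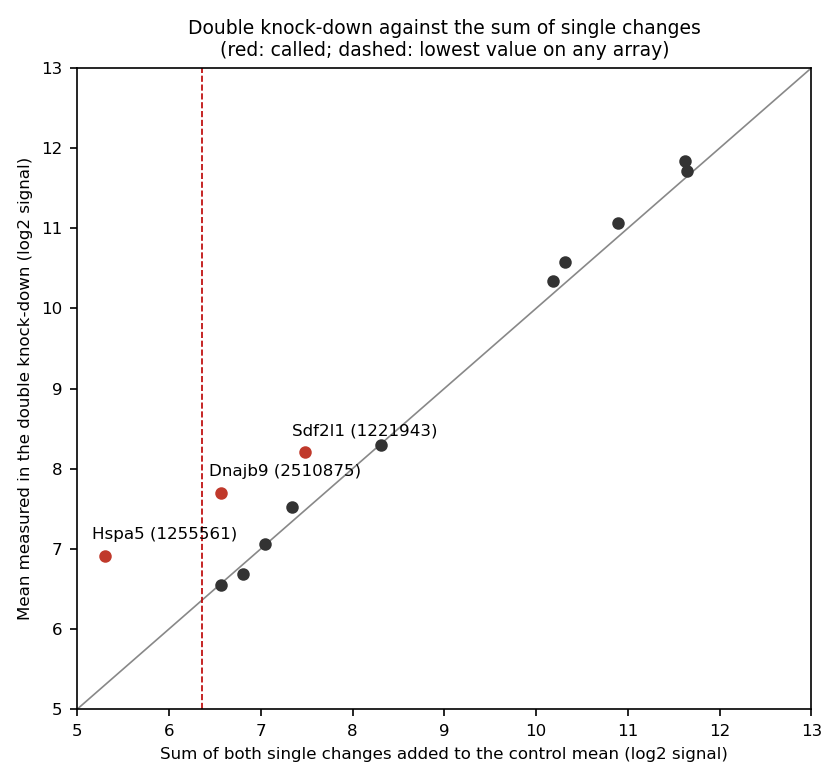
Mean log2 signal measured in the double knock-down (y axis) against the control mean plus both single changes (x axis) for each of the 13 probes, with the line of equal values and, dashed, the lowest value on any array, 6.36. The 3 red points, Hspa5, Dnajb9 (ILMN_2510875) and Sdf2l1, are called departures above the line, and Hspa5 alone lies left of the dashed line.

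The genes that work beside the members were described from 6 further lists, also chosen with earlier results of these data known. Shares of all genes called were 11.9% higher and 11.1% lower in differentiation. With Tmem120a, Tmem120b and double knock-down they were 2.32%, 4.04% and 3.96% lower, and 0.829%, 3.83% and 3.29% higher. Under a median shift 18.9% were called higher in differentiation, and 13.8%, 13.2% and 8.38% lower in the knock-downs. In unfolded protein response signalling, 7 of 16 genes rose with differentiation and 0 fell, with a list median of 0.43. Ddit3, a transcription factor tied to ER stress, rose by 2.99, Xbp1, whose splicing Ern1 carries out, by 1.83, and Trib3, a pseudokinase under Ddit3, by 1.63. With Tmem120a knock-down 5 of these 16 genes fell, with Tmem120b knock-down 5 and in the double knock-down 6, and 0 rose in any. Ern1, Ddit3, Trib3, Chac1 and Ppp1r15a fell in all 3, and Atf4, which directs amino acid and stress genes, in the double knock-down as well (-0.72, adjusted p = 0.000174). Ern1, the sensor kinase that Dnajb9 holds back, was at -0.78, -0.91 and -0.98, and Trib3 at -0.63, -0.88 and -0.91. Chac1, which degrades glutathione, was at -0.76, -0.56 and -0.84, and Ppp1r15a, which restores translation, at -0.65, -0.62 and -0.65. Xbp1 differed from control by -0.08 (adjusted p = 0.758), -0.11 (adjusted p = 0.596) and 0.06 (adjusted p = 0.809), none called. Every call in this list held with arrays shifted to a common median, which gave 11 genes higher in differentiation and 9, 7 and 6 lower in the knock-downs.

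ER-associated degradation, which takes misfolded protein back to the cytosol, also rose with differentiation: 8 of 14 genes were called higher and 0 lower, with a list median of 0.62. Derl2, a channel component, rose by 1.40 and Herpud1, which assembles the ligase complex, by 0.91. With knock-down the list median was -0.04, -0.02 and 0.03, but -0.49, -0.35 and -0.19 under a median shift. That shift called 6, 4 and 3 of these genes lower, where 13.8%, 13.2% and 8.38% of all genes were called lower. Herpud1 was called lower with Tmem120a knock-down (-0.57) and in the double knock-down (-0.64), Derl2 with Tmem120b knock-down (-0.80) and in the double knock-down (-0.57), and Ufd1, a cofactor that pulls substrates out of the membrane, with Tmem120b knock-down (-0.55).

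Among 23 other ER folding factors, differentiation raised 1, the Hspa5 exchange factor Sil1 (1.19), and lowered 5, among them the disulfide reductase Dnajc10 (-1.12) and the isomerase Txndc5 (-0.71). Tmem120a knock-down lowered 2, the collagen chaperone Serpinh1 (-1.10) and the thiol retention protein Erp44 (-0.53). Tmem120b knock-down lowered Erp44 (-0.69) and raised Txndc5 (0.70) and Dnajc10 (0.55), and the double knock-down lowered Erp44 (-0.57) and raised Txndc5 (0.77). A median shift kept the signs but lost the calls of Txndc5 in all 3 of its comparisons and of Dnajc10 with Tmem120b knock-down. It did the same to the calls of Creld2 and Ppib, which had fallen with differentiation. Of 12 genes of glycan trimming and glycosylation, the glucosidase Mogs (-0.64) and Ostc (-0.60) fell with differentiation, 0 changed with Tmem120a knock-down, and Ostc, a subunit of the oligosaccharyltransferase, rose with Tmem120b knock-down (0.50) and in the double knock-down (0.62). These 4 calls were also lost under a median shift. That shift called 3 glycan genes lower with Tmem120a knock-down (Prkcsh, Stt3a and Ddost), with a list median of -0.46. It called 8, 4 and 2 of the 23 other folding factors lower in the knock-downs. Of all genes it called 13.8%, 13.2% and 8.38% lower there.

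Chaperones of other compartments were set beside those of the ER. Of 15 cytosolic chaperones 8 fell and 1 rose with differentiation (list median -0.67). A median shift did not call the falls of Hspa4 and Cct5 there. In each knock-down 3, Hspa4, Hsp90aa1 and Cct5, were called lower. Hsp90aa1, the inducible cytosolic Hsp90, was at -1.22 with Tmem120a knock-down, -1.14 with Tmem120b knock-down and -1.19 in the double knock-down. Of 8 mitochondrial chaperones, 4 rose and 2 fell with differentiation, and Hspd1 and Hspe1, which form the folding chamber of the matrix, were called lower in each knock-down, though their falls with differentiation were not called under a median shift. Hspe1 was at -0.85, -1.36 and -1.66. The median shift called 7, 4 and 4 cytosolic and 5, 7 and 5 mitochondrial chaperones lower in the knock-downs. Of all genes, that shift called 13.8%, 13.2% and 8.38% lower. Falls of single chaperones were thus measured in the cytosol and mitochondria as well as in the ER.

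**Figure D4:**
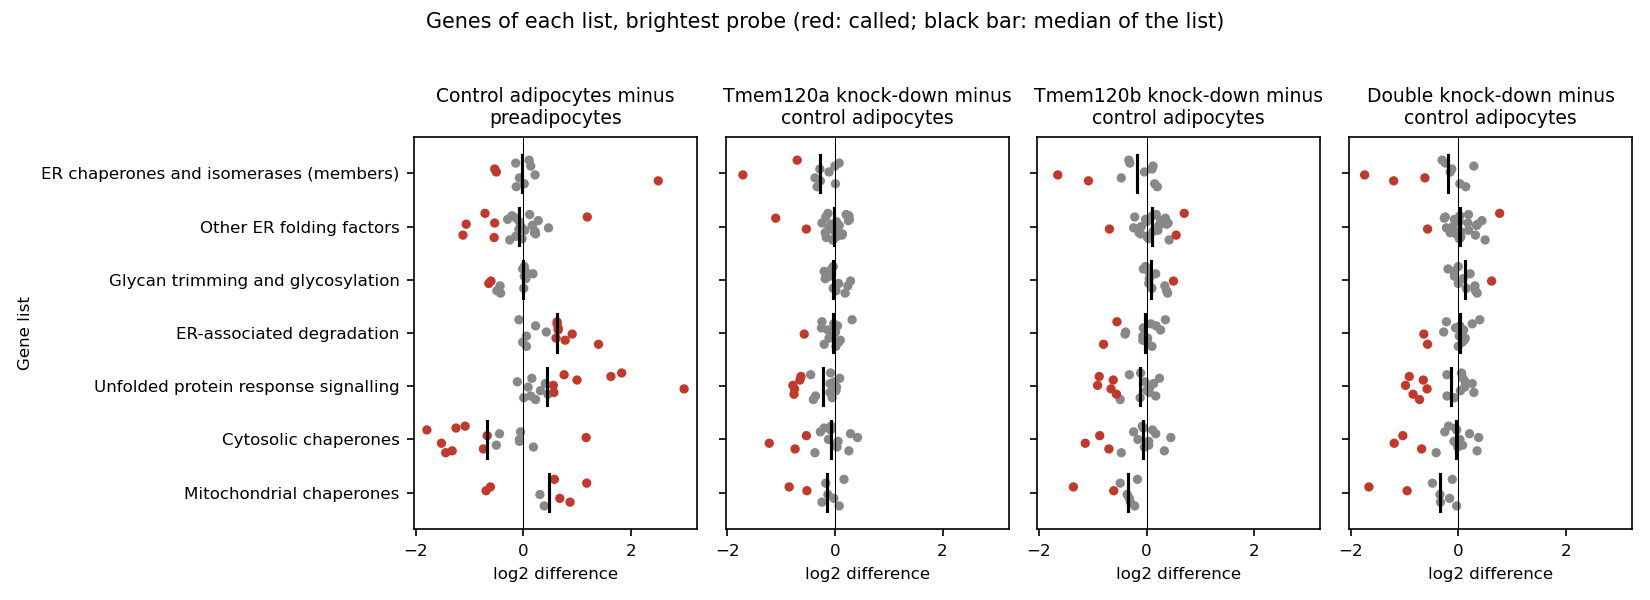
Log2 difference (x axis) of each gene on its brightest probe for the 10 members and 6 further lists (y axis) in 4 comparisons, red where called, with the list median as a black bar. Unfolded protein response signalling has its median at 0.43 in differentiation and 5, 5 and 6 called genes in the knock-downs, all lower. Of all genes, 2.32%, 4.04% and 3.96% were called lower there.

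The genes whose pattern was most like that of Hspa5 were sought among 10554 genes above background in at least 1 group, by Pearson's r over the 11 arrays. They were Prl2c1 (0.991), Tanc1 (0.989), Vps26b (0.988), Cblb (0.984) and Eid1 (0.983). The arrays fall into separate groups, so these values describe the common step between knock-down and other arrays and carry no test. Prl2c1 averaged 8.17 in controls and 6.63, 6.68 and 6.67 in the knock-downs, and Eid1 averaged 8.17 and 7.00, 6.94 and 6.87. No gene of the 6 further lists was among them.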

How the data were processed

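RNA of 11 samples in 5 groups, taken from the labels, was measured on Illumina MouseWG-6 v2 arrays. The authors deposited log2 signals of 45281 probes both without normalisation and after quantile normalisation over all arrays with limma (version not given in the sources used here). Background treatment of the bead values and chip position are not given either. The normalised log2 values were analysed, with 0 columns left without a sample. Repeating the quantile normalisation changed no value by more than 0.0398. The values carry no detection p-values, so background was set at 6.88, the mode of all values (6.66) plus 3 times the spread below it (0.0738). The number of arrays limits the precision (median residual SD 0.0728).

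A linear model of the 5 group means was fitted to all probes with limma 3.58.1 in R 4.3.3 (6 residual degrees of freedom, 6.15 added by moderation), and each contrast was tested with its two-sided moderated statistic and Benjamini-Hochberg adjustment over all 45281 probes. All adjusted p-values are from this test. Calls required an adjusted p of at most 0.05 and a log2 difference of at least 0.5 (1.41-fold). Genes were counted on the probe with the highest mean over all arrays. The fit was tested on simulated data. Of the probes, 34885 had 1 symbol, 18 several and 10378 none in the platform annotation, and 34807 matched a RefSeq gene. The 10 members, the lists and the markers were chosen with earlier results of these data known. Named genes are the members, both targets, list genes with the largest moderated F or with a call, and the 5 genes most like Hspa5. Alternatives were the repeated normalisation, a shift of raw arrays to a common median, a replicate block, leaving out each array, fitting only the groups compared, an intensity trend, the mean of a gene's probes, a filter at log2 6.5 on every array (42388 probes) and the moderated F.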

Additional observations from a re-analysis of the deposited data

Results flagged for a closer look

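The following 5 values were called, either between the single knock-downs or as a departure from the sum of both single changes. A departure also draws on the controls, and for Hspa5 no difference between knock-downs was called. No group was large enough to test single arrays as outliers. Dnajb9 was lower with Tmem120b than with Tmem120a knock-down by -0.81 on probe ILMN_2829636 (10.37 and 10.53 against 11.51 and 11.02) and by -0.83 on probe ILMN_2510875 (7.77 and 7.70 against 8.66 and 8.48). The double knock-down lay above the sum of both single changes by 1.62 for Hspa5, whose sum of 5.30 is under the lowest value on any array. It lay above by 1.13 for Dnajb9 on probe ILMN_2510875, whose brighter probe departed by 0.15, and by 0.73 for Sdf2l1. Of these called departures, that of Sdf2l1 is the one whose sum, 7.48, and measured value, 8.21, are both above background, and it was called in all 19 alternative settings (0.65 to 1.33). What lies behind these differences was not tested.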

How the results depend on the processing

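Of 14 calls of a member in a comparison, 9 held in all 19 alternative settings, 11 of which leave out 1 array, and 0 changed sign. Scaling mattered most. When raw arrays were merely shifted to a common median, the members called were 6 with Tmem120a knock-down, 5 with Tmem120b knock-down, 5 in the double knock-down and 0 in each of 2 comparisons between knock-downs (single ones compared, and Tmem120b shRNA added), against 2, 2, 3, 1 and 1. Over all genes the shift gave 7 higher and 2626 lower with Tmem120a knock-down (158 and 442 after quantile normalisation), 156 and 2515 with Tmem120b knock-down (729 and 770), 154 and 1597 in the double knock-down (627 and 755), 3605 and 1261 in differentiation (2267 and 2110), and 1709 and 5 for departures from additivity (319 and 154). It also gave 407 and 167 for the single knock-downs compared (698 and 525), 454 and 50 with Tmem120b shRNA added (524 and 405), and 0 and 0 with Tmem120a shRNA added (9 and 29). The median departure of all genes moved from -0.02 to 0.11, and those of Hspa5 and Sdf2l1 stayed called. The cause was not tested. Leaving out 1 array gave 1 to 3 members in differentiation (1 without control replicate 2), 1 to 2 in the single knock-downs compared and 1 to 2 with Tmem120b shRNA added. The single knock-downs compared gave 2 members with only the groups compared, 2 with an intensity trend and 2 with the mean of a gene's probes, Calr joining Dnajb9. Deviations of the replicate 1 arrays from their group means correlated at -0.15 to 0.24 over 10 pairs of groups. These values neither show nor exclude a pairing by replicate number. With replicate number as a block, 2 members were called in the single knock-downs compared, and all-gene counts were 177 higher and 452 lower with Tmem120a knock-down, 721 and 790 with Tmem120b knock-down and 633 and 777 in the double knock-down.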
